A study of Mus musculus with 18 samples.

Results

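Amino acid transporters of the solute carrier families SLC1, SLC3, SLC6, SLC7, SLC36, SLC38 and SLC43 were followed in the distal colon of mice that develop colitis without interleukin 10. Members were all genes of the deposited gene tables whose symbol starts with one of these family names, which gave 49 of 16321 genes, with no use of their measured values. All 49 passed the filter on low counts. The groups were BALB/c Il10KO mice at weeks 6, 8, 10, 12 and 14 of age and BALB/c wild-type (WT) mice at week 6, with 3 mice in each group and 1 biopsy library of polyadenylated RNA per mouse. Interleukin 10 is a cytokine that restrains inflammation, and mice without it develop colitis spontaneously. Il10 itself had 0 estimated counts in all 15 Il10KO libraries and 1, 0 and 3 in the WT libraries, so its level checks the genotype labels only weakly. No WT mice older than week 6 were analysed, so any change at a later age cannot be told apart from growth. All WT mice shared cage G, which held no Il10KO mouse, so genotype and cage cannot be told apart either.

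Cells take up amino acids through carriers that differ in substrate and in what drives them. The SLC7 light chains carry the substrate and reach the membrane only when joined to an SLC3 heavy chain, SLC3A2 (CD98hc) for most of them and SLC3A1 (rBAT) for SLC7A9. The SLC1, SLC6 and SLC38 carriers are driven by sodium, the SLC36 carriers by protons, and the SLC43 carriers let large neutral amino acids pass down their gradient. In the gut the uptake carriers of the brush border are best known from the small intestine, and the colonic epithelium makes a set of its own that includes Slc6a14. Several of the genes matched by name carry something else: Slc6a4 serotonin, Slc6a2 noradrenaline, Slc6a8 creatine, Slc6a6 taurine, Slc6a11 GABA, Slc6a12 betaine and GABA, and Slc43a3 purine nucleobases. Slc7a6os is named for its place on the opposite strand beside Slc7a6 and is no transporter.

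The libraries held 26495521 to 35497101 estimated counts. Week 14 was uneven: its replicates 2 and 3 had RNA integrity numbers (RIN) of 6.5 and 5.8, against 8.4 to 9.3 elsewhere, and the neutrophil genes S100a8 and S100a9 took 0.876% and 0.666% of their counts. At week 10 these genes took 0.422% of the counts of replicate 1 and 0.0167% and 0.002% of those of replicates 2 and 3. Over the 49 members, Pearson's r between libraries, across genes that are not independent replicates, was 0.845 to 0.944 within week 14 and 0.977 to 0.990 within Il10KO week 6. Levels of single genes between groups are given below as CPM, counts scaled to the size of the library after TMM, the edgeR normalisation. Levels between genes are given as TPM, a share of transcripts that allows for their length. TPM were not used for the main tests between groups because the median change of all genes was shifted on that scale: on log2(TPM + 1), against Il10KO week 6, it was -0.34, -0.36 and -0.74 at the ages of 10, 12 and 14 weeks. In the count model these medians were 0.01, 0.00 and -0.06. Sums over several genes are given in TPM and carry this shift. Changes are log2 fold changes ± SE from edgeR's quasi-likelihood test over 16300 genes, n = 3 per group, called at a Benjamini-Hochberg adjusted p below 0.05. The SE uses a spread shared by all groups and not that of the 3 mice. Exons of 14 members overlap those of another gene on the other strand, among the called ones Slc3a1, Slc6a20a, Slc43a2, Slc7a10 and Slc38a10, and whether counting used strand is not given in the sources used here. In bulk tissue, fewer cells of a type and less RNA per cell cannot be told apart.

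Of the 49 members, 15 averaged 10 TPM or more over all libraries, 17 lay from 1 to under 10 TPM and 17 lay under 1 TPM. In 18 of them every library reached 1 TPM. At Il10KO week 6 the highest was Slc6a14, a broad carrier of neutral and cationic amino acids, at 299 TPM, followed by the creatine carrier Slc6a8 at 237 TPM. Next came Slc38a6 at 119 TPM, a value that rests on a doubtful transcript described below. Slc1a5, which exchanges glutamine and other neutral amino acids (ASCT2), averaged 81.3 TPM and Slc3a2 61.1 TPM. They were followed by Slc38a10 at 52.2 TPM and the glutamine and alanine carrier Slc38a2 at 49.3 TPM, which overlapped in single libraries. Carriers known from the brush border of the small intestine spanned a wide range: Slc36a1 averaged 31.3 TPM, Slc1a1 26.5 TPM, Slc6a20a 5.497 TPM and Slc7a9 4.01 TPM. Slc6a19, the main neutral carrier there, averaged 0.385 TPM and Slc3a1 0.300 TPM. Slc7a2, an arginine carrier known from activated macrophages, averaged 0.234 TPM. The summed TPM of the members without Slc38a6 at weeks 6, 8, 10, 12 and 14 was 1058 ± 16.5, 969 ± 122, 601 ± 217, 590 ± 99.1 and 430 ± 444 in Il10KO mice in that order, against 1073 ± 57.0 in WT mice (SD, n = 3), on the TPM scale whose shift is given above.

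**Figure D1:**
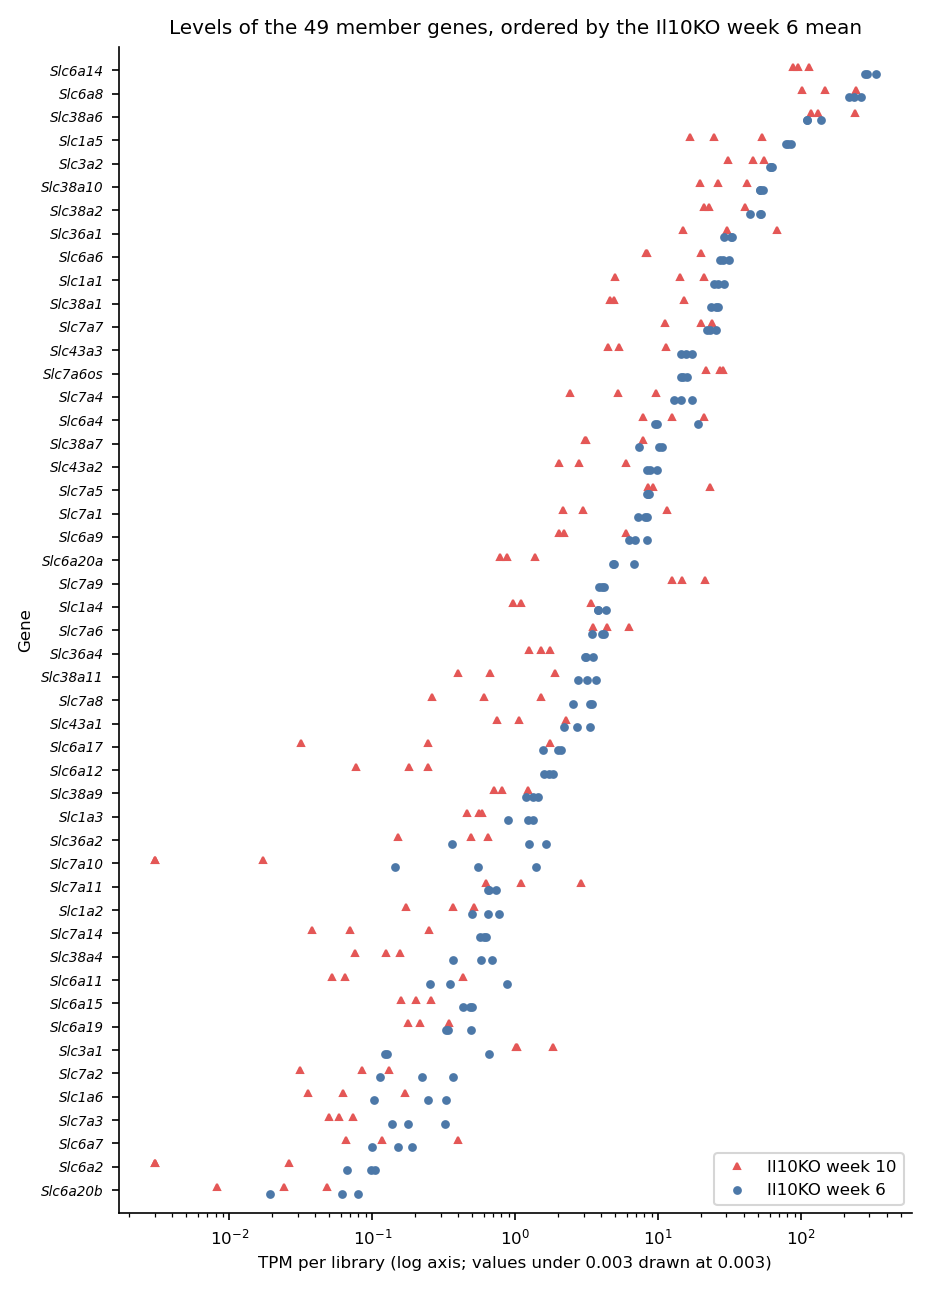
TPM (log axis) of the 49 members in each library of Il10KO week 10 (red triangles) and Il10KO week 6 (blue circles), ordered by the week 6 mean. Slc6a14 lies at the top at week 6 with a mean of 299 TPM, and the members span several orders of magnitude.

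At week 6 the comparison of Il10KO with WT asks what differs at the youngest age. No member was called by edgeR at this age, where 0% of all genes were called. At an unadjusted p below 0.05 edgeR had 2 members, and DESeq2 and limma called 0. The member median change was 0.01, against -0.01 over all genes, and 27 of 49 fitted changes lay above 0, against 48.4% of all genes. Slc6a7, a proline carrier of neurons, had 0.214, 0.348 and 0.407 CPM in Il10KO mice and 0.689, 0.602 and 1.09 CPM in WT mice. The 2 groups did not overlap, but the change of -1.29 ± 0.56 had an adjusted p of 1 in edgeR's test. Slc7a6, a light chain that exchanges cationic against neutral amino acids (y+LAT2), had 8.32, 9.55 and 9.43 CPM in Il10KO mice and 5.24, 7.50 and 6.81 CPM in WT mice, also without overlap and with an adjusted p of 1. Slc3a2 had 62.0, 65.9 and 63.7 CPM in Il10KO mice and 73.5, 72.1 and 70.9 CPM in WT mice, again without overlap, with a change of -0.18 ± 0.17. Of its coding transcripts, Slc3a2-201 held 62.9% to 78.7% of the Slc3a2 TPM in Il10KO mice and 81.0% to 85.1% in WT mice, a description with no test. In 26 members at least 2 coding transcripts held 10% or more of the TPM in some group. Transcript shares of the others are not given for this comparison, so this difference is not shown to be particular to Slc3a2. A lack of overlap was not particular to these genes. Slc1a4, Slc36a4, Slc38a6 and Slc7a9 were also higher in every Il10KO mouse than in every WT mouse, and Slc36a1, Slc38a7 and Slc38a10 were lower. For Slc7a9 the ranges were 3.95 to 4.39 CPM in Il10KO mice and 3.36 to 3.67 CPM in WT mice. None of these was called, and the share of all genes without overlap was not counted.

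Week 8 against week 6 in Il10KO mice had no called member either, with 0.0675% of all genes called by edgeR. The unadjusted count was 4, and DESeq2 and limma called 0. The member median was -0.39, against 0.03 over all genes, and 14 of 49 fitted changes lay above 0, against 52.7% of all genes. Slc7a9, called at later ages, had 3.30, 14.4 and 10.1 CPM at week 8, against 4.01, 4.39 and 3.95 CPM at week 6. Replicates 2 and 3 were above every week 6 mouse and replicate 1 below them. Slc6a20a had 5.23, 4.46 and 5.29 CPM at week 8, against 8.38, 12.1 and 8.30 CPM at week 6, with no overlap and an adjusted p of 0.523. Slc6a14 and Slc7a5, also called later, overlapped week 6 at week 8. They had 465 to 698 and 17.6 to 27.1 CPM, against 618 to 738 and 18.9 to 20.2 CPM. Each age had its own mice, and the share of all genes without overlap was not counted.

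Week 10 against week 6 had 12 called members, 7 higher and 5 lower, where 24.0% of all genes were called, 14.6% higher and 9.48% lower. The share of called members was therefore close to that of all genes. The direction over the whole family was not: 10 of 49 fitted changes lay above 0, against 50.5% of all genes, and the member median was -0.60, against 0.01 over all genes. Higher were mostly subunits of the heteromeric carriers, Slc7a9, Slc3a1, Slc7a5, Slc7a6 and Slc7a11, together with Slc7a6os and Slc38a6. Lower were Slc6a20a, Slc6a14, Slc6a12, Slc43a2 and Slc7a10. The calls depended on single libraries. Only Slc7a9 and Slc6a20a kept their call without any 1 of the 6 libraries compared, and Slc7a5, Slc7a6, Slc7a11, Slc7a6os, Slc38a6, Slc6a12 and Slc43a2 lost it without any 1 of the week 6 libraries. The number of called members was 3 without week 10 replicate 1, 3 without week 6 replicate 1, 3 without week 6 replicate 2 and 4 without week 6 replicate 3. With cage as a factor it was 3, and Slc7a9, Slc7a5 and Slc6a20a passed. Without the 2 libraries of low RIN, which belong to week 14 and are not among those compared here, it was 26.

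**Figure D2:**
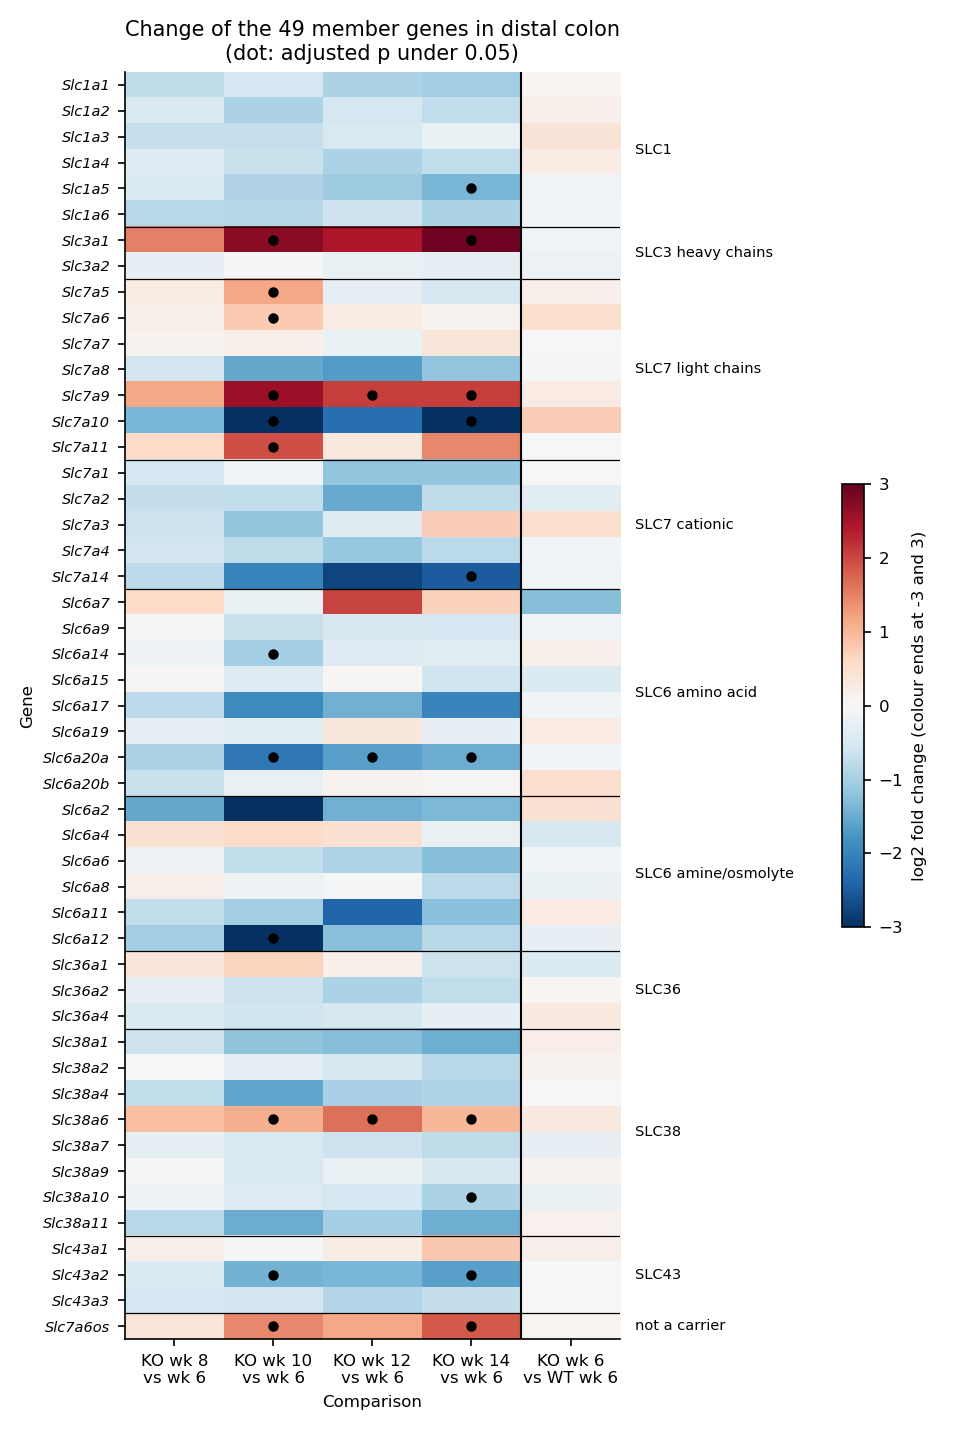
Log2 fold change of each member (rows, by family) in the 4 comparisons of a later Il10KO age with Il10KO week 6 and, right of the line, of Il10KO week 6 with WT week 6, as colour, with a dot where the adjusted p was below 0.05. Slc7a9, Slc6a20a and Slc38a6 carry a dot at weeks 10, 12 and 14, and no member has one at week 8 or against WT.

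The subunits of the cystine and dibasic amino acid carrier rose together at week 10. Slc3a1 (chr17:85028376-85064236, forward strand, GRCm38) encodes the heavy chain rBAT and Slc7a9 (chr7:35448796-35466036, forward strand) its light chain; both are defective in cystinuria. Slc7a9 had 20.9, 35.98 and 16.5 CPM at week 10, against 4.01, 4.39 and 3.95 CPM at week 6. Every week 10 mouse was above every week 6 mouse, and the change was 2.57 ± 0.50 (adjusted p = 0.00625). This call held in all 19 alternatives run, with changes of 1.73 to 2.79. Slc3a1 had 4.53, 2.42 and 1.66 CPM at week 10, against 0.918, 0.190 and 0.188 CPM at week 6. These rest on 118, 71 and 55 counts at week 10, against 30, 6 and 6 counts at week 6. The groups did not overlap, and the change was 2.72 ± 0.73 (adjusted p = 0.0211). It was lost without week 10 replicate 1 (2.22) and without week 6 replicate 2 or replicate 3, the libraries with the fewest counts (2.36 each). Prepl, whose exons overlap those of Slc3a1 by 601 bases on the other strand, changed by -0.34 (adjusted p = 0.169). On the TPM scale the light chain was the more abundant, at 16.0 ± 4.5 TPM for Slc7a9 and 1.29 ± 0.47 TPM for Slc3a1 at week 10 (SD, n = 3).

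The promoters of this pair are shown because both genes moved together. Sequences are from RefSeq (GRCm38.p6), 5′ to 3′ on the strand of the gene, from 250 bases before the annotated start to 50 after it, and windows were found for 36 of the 49 members. Capitals mark a match to CAAAGTCCA, a binding motif of the hepatocyte factor HNF4, searched on both strands. It was found in 0.475% of 32851 windows of this length, and in 1 of 53 member windows (1.89%), that of Slc3a1. The HNF1 motif, of 12 letters, was found in no member and in 0.0609% of all windows. Slc7a9 has 2 overlapping windows, of which the first, at chr7:35448842-35449141, is shown; neither held either motif. Both windows begin after the GENCODE start of Slc7a9 given above, since the annotations place the start differently, so no base before that start is shown. The Slc3a1 window lies at chr17:85028097-85028396.
Slc3a1: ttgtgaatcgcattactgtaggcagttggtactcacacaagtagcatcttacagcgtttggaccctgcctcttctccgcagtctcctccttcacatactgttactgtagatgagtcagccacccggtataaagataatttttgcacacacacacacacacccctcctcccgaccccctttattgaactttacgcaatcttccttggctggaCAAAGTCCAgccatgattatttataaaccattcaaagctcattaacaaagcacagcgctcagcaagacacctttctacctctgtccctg
Slc7a9: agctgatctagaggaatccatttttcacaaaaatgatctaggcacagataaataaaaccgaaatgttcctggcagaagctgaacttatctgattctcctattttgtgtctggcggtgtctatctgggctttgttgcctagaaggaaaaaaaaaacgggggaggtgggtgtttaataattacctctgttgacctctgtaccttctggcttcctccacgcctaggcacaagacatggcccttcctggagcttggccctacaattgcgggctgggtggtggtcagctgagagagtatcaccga
A match describes letters and not a site in use.

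Of the light chains that pair with Slc3a2, Slc7a5, Slc7a6 and Slc7a11 rose at week 10 and the heavy chain did not pass. Slc7a5 (LAT1; chr8:121881150-121907694, reverse strand) brings leucine and other large neutral amino acids into growing and activated cells. It had 37.2, 32.3 and 62.4 CPM at week 10, against 18.9, 20.2 and 19.5 CPM at week 6. All week 10 mice were above all week 6 mice, replicate 3 most, and the change was 1.17 ± 0.33 (adjusted p = 0.0243). It was 0.83 without week 10 replicate 3, where the call was also lost. On log2(TPM + 1) it was 0.49 and not called, on a scale where the median of all genes was -0.34. At week 12 Slc7a5 had 11.9, 12.8 and 23.1 CPM, below all 3 week 10 mice, but this change of -1.46 ± 0.33 had an adjusted p of 0.0613. Slc7a6 had 18.02, 13.1 and 15.8 CPM at week 10, against 8.32, 9.55 and 9.43 CPM at week 6, without overlap (0.78 ± 0.22, adjusted p = 0.0257). Slc3a2, the shared heavy chain, had 48.6, 71.1 and 65.0 CPM at week 10, against 62.0, 65.9 and 63.7 CPM at week 6. The groups overlapped, the change was -0.05 ± 0.17 (adjusted p = 0.815), and its direction turned to 0.090 without week 10 replicate 1.

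Slc7a11 (xCT; chr3:49892526-50443614, reverse strand) exchanges glutamate for cystine, the source of cysteine for glutathione. It had 32.0, 11.4 and 4.61 CPM at week 10, against 3.70, 4.17 and 4.61 CPM at week 6. Replicate 1, the week 10 library with most S100a8 and S100a9, was far above the others, and replicate 3 reached only the top of the week 6 range. The change was 1.94 ± 0.57 (adjusted p = 0.0291), and 0.94 and not called without replicate 1; the part of neutrophils in it was not tested. Its promoter is shown because the gene is a known target of the amino acid response, in which the factor ATF4 binds the element TGATGNAA. Capitals mark matches to it, searched on both strands, in the RefSeq window chr3:50443564-50443863 (reverse strand).
Slc7a11: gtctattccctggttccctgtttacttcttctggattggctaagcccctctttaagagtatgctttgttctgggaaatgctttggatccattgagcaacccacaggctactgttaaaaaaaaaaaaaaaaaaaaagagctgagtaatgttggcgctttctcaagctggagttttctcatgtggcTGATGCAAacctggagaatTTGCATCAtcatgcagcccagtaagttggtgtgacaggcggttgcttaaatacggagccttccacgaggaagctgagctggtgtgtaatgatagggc
The pair of matches lies in opposite orientation just before the start. The element was found in 3.97% of all windows and in 4 of 53 member windows (7.55%), those of Slc1a4, Slc7a11 and Slc7a7. Slc1a4, which carries alanine, serine and cysteine, and Slc7a7, a light chain for cationic amino acids (y+LAT1), were not called in any comparison. Slc7a5 had no entry in the promoter table. The antioxidant response element TGACNNNGC was in 12.4% of all windows and in 7 matched members, Slc36a1, Slc38a2, Slc43a1, Slc6a11, Slc6a9, Slc7a1 and Slc7a6, and not in Slc7a11.

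The other light chains had low levels or did not pass at week 10. Slc7a10 (asc-1), a carrier of small neutral amino acids known from neurons and adipocytes, was called lower at week 10 on 0, 1 and 0 counts, against 40, 7 and 4 counts at week 6 (adjusted p = 0.0219). Most of the week 6 counts came from replicate 1, and the call was lost without that library or without week 10 replicate 1. Week 6 replicate 1 had the highest summed TPM of 5 adipocyte markers, 107, against 30.1 and 36.2 in the other week 6 libraries. At week 10 the sum was 16.8 to 17.4, on the TPM scale whose shift is given above. The part of adipocytes in the result was not tested. Slc7a10 lies below 1 TPM in all group means and is named here because of its call. Slc7a8 (LAT2), which carries neutral amino acids, had 1.23, 2.73 and 4.79 CPM at week 10, against 9.18, 7.18 and 8.96 CPM at week 6. The groups did not overlap, but the change of -1.53 ± 0.71 had an adjusted p of 0.109. Slc7a7 had a change of 0.15 ± 0.24. The cationic carriers of SLC7 had no call at week 10 (0 of 5, median -0.77, against 2 at an unadjusted p below 0.05). Slc7a1 (CAT1), which brings arginine into most cells, had 18.4, 24.0 and 66.7 CPM at week 10, against 35.1, 42.7 and 38.5 CPM at week 6. Replicate 3 was above and the other mice below every week 6 mouse, and the fitted change was -0.09 ± 0.52; its sign turned without replicate 1 or replicate 2. That library also had the highest Slc7a5 level. Slc7a2 had 1.19, 0.273 and 0.391 CPM at week 10, against 0.857, 0.632 and 1.57 CPM at week 6 (-0.73 ± 0.60, adjusted p = 0.341).

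**Figure D3:**
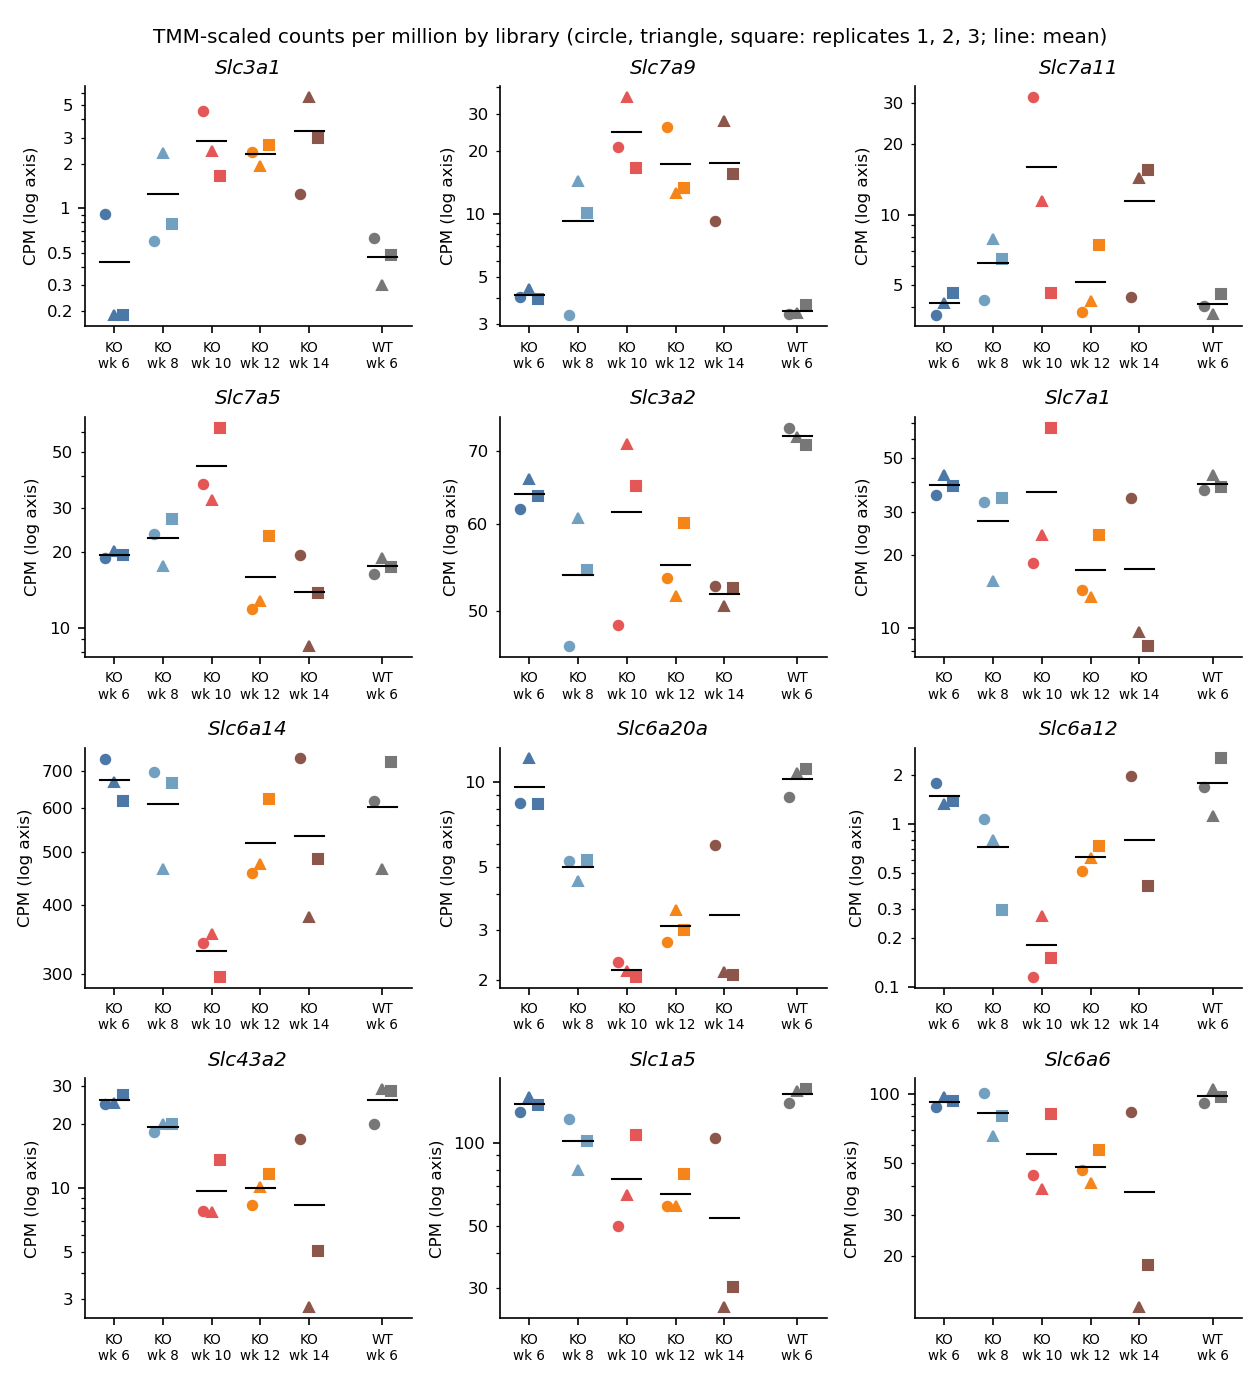
TMM-scaled CPM (log axis) of 12 members in each library, by Il10KO age and, at the right, WT week 6; symbols mark replicate numbers and lines group means. At week 10 Slc7a9, Slc3a1 and Slc7a5 lie above week 6 in all 3 mice, Slc6a14 and Slc6a20a lie below it in all 3, and at week 14 replicate 1 (circle) stands apart from the other 2 for many genes.

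Among the sodium and chloride driven SLC6 carriers, 2 of the 8 that carry amino acids fell at week 10 and none rose, where 9.48% of all genes were called lower and 14.6% higher. Slc6a20a (chr9:123634770-123678885, reverse strand), a carrier of proline and other imino acids, had 2.31, 2.15 and 2.05 CPM at week 10, against 8.38, 12.1 and 8.30 CPM at week 6. The lowest week 6 mouse was far above all week 10 mice, and the change was -2.14 ± 0.36 (adjusted p = 0.0033). It held in all 19 alternatives run, from -2.36 to -1.69. Ccr9, which overlaps it on the other strand, changed by 0.34 (adjusted p = 0.530). Its close paralog Slc6a20b, with which reads could be shared, had 0.346, 0.171 and 0.0301 CPM at week 10, against 0.0612, 0.348 and 0.219 CPM at week 6. Slc6a14 (chrX:21714896-21742355, forward strand), the member with the highest mean TPM at Il10KO week 6, had 341, 354 and 296 CPM at week 10, against 738, 669 and 618 CPM at week 6. Again no mouse overlapped, and the change was -1.03 ± 0.27 (adjusted p = 0.018). Without week 10 replicate 1 it was -1.05 and not called, and the same held without week 6 replicate 1 (-0.96) or 2 (-1.04). By week 12 Slc6a14 had 457, 475 and 622 CPM, above all 3 week 10 mice and overlapping week 6. Slc6a19 had 0.884, 0.614 and 0.542 CPM at week 10, against 0.765, 0.948 and 0.846 CPM at week 6, with overlap and an adjusted p of 0.555. Anpep, a brush border peptidase that associates with SLC6A19, fell, with a change of -1.58 ± 0.54 (adjusted p = 0.0467).

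Of the 6 SLC6 carriers of amines, GABA and osmolytes, only Slc6a12 was called at week 10. Slc6a12 (BGT1; chr6:121343076-121365775, forward strand) carries betaine and GABA. It had 0.115, 0.273 and 0.151 CPM at week 10, against 1.77, 1.33 and 1.38 CPM at week 6, without overlap (-3.02 ± 0.91, adjusted p = 0.0296). The call was also lost without any 1 of the week 10 libraries, and at week 12 the level was 0.516, 0.618 and 0.733 CPM, between both. Slc6a4, the serotonin carrier of the epithelium, had 17.1, 25.2 and 27.6 CPM at week 10, against 20.8, 14.1 and 12.5 CPM at week 6 (0.56 ± 0.31, adjusted p = 0.171). Slc6a6 had 44.7, 38.7 and 82.1 CPM at week 10, against 87.6, 96.6 and 93.4 CPM at week 6. All week 10 mice were below all week 6 mice, and the change of -0.75 ± 0.51 did not pass (adjusted p = 0.256).

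The SLC1, SLC36, SLC38 and SLC43 carriers mostly lay lower without passing at week 10. Slc43a2 (LAT4; chr11:75531694-75577575, forward strand), which lets branched-chain amino acids and phenylalanine pass, was called lower, and Slc38a6, described below, was called higher. Slc43a2 had 7.80, 7.71 and 13.5 CPM at week 10, against 24.7, 25.1 and 27.3 CPM at week 6, without overlap (-1.41 ± 0.46, adjusted p = 0.0395). The call was also lost without week 10 replicate 1 or 2, and with the replicate number as a block, at -1.42. All 6 SLC1 members had a fitted change below 0, from -0.94 to -0.51, with no call and 1 at an unadjusted p below 0.05. Slc1a5 had 49.9, 65.0 and 107 CPM at week 10, against 130, 146 and 137 CPM at week 6, with no overlap and a change of -0.90 ± 0.42 (adjusted p = 0.111). Slc38a2 had 124, 109 and 148 CPM at week 10, against 162, 143 and 159 CPM at week 6, which overlapped (-0.29 ± 0.35, adjusted p = 0.524). None of the 3 SLC36 members was called. Slc7a6os rose, with 36.9, 32.5 and 17.5 CPM at week 10, against 10.8, 10.7 and 10.4 CPM at week 6 (1.44 ± 0.42, adjusted p = 0.0277).

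Slc38a6 was called higher at weeks 10, 12 and 14, but its count is nearly all of 1 unusual transcript. Slc38a6 (chr12:73286779-73354049, forward strand) belongs to the SLC38 family by sequence. A truncated transcript of 5 exons held 96.2% to 99.5% of the Slc38a6 counts in the 18 libraries. Its last exon, at chr12:73310990-73314520, is 3531 bases long and lies within an intron of the full-length transcript. In BLASTN this exon matched transcripts of 119 other genes, with at least 95% identity over at least 1000 bases in 8 of them; the longest match, to Gm42860, was 98.3% identical over 3260 bases. Reads from these other genes may count towards Slc38a6, so its values are uncertain as measures of the gene. With the deposited counts Slc38a6 had 1065, 501 and 399 CPM at week 10, against 277, 291 and 349 CPM at week 6 (1.10 ± 0.34, adjusted p = 0.034). The change was 1.66 ± 0.35 at week 12 (adjusted p = 0.0362) and 1.01 ± 0.34 at week 14 (adjusted p = 0.0371). All other Slc38a6 transcripts together had 13.6, 8.57 and 8.97 CPM at week 10, against 7.62, 9.58 and 7.77 CPM at week 6, and overlapped. Their change against week 6 was 0.32 (adjusted p = 0.242), and for weeks 12 and 14 it was 0.03 (adjusted p = 0.935) and 0.23 (adjusted p = 0.366). This split was chosen after the values were seen.

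**Figure D4:**
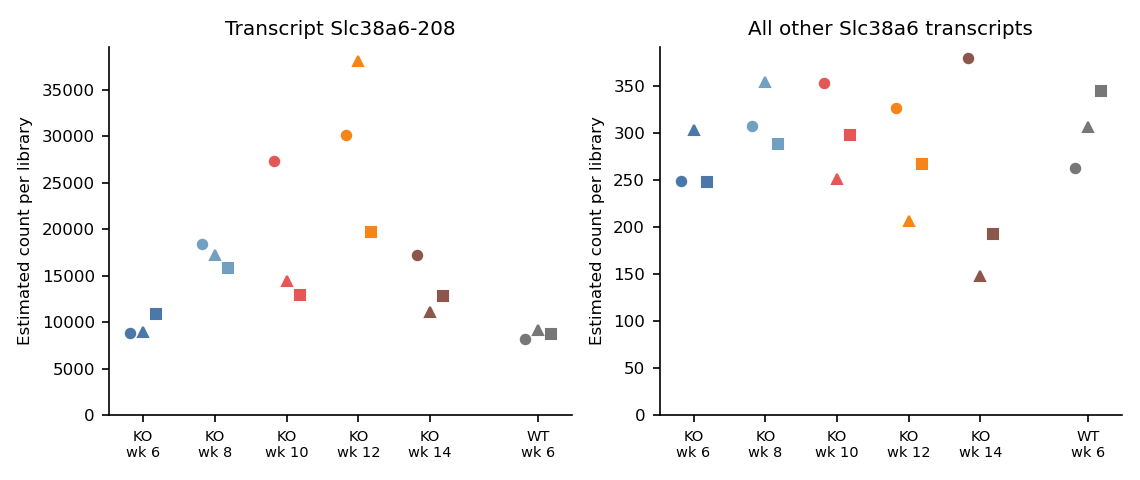
Estimated counts of the 5-exon Slc38a6 transcript (left) and of all other Slc38a6 transcripts summed (right) in each library, by Il10KO age and, at the right of each panel, WT week 6; both axes start at 0 and differ in scale. The first holds 8149 to 38106 counts and lies higher from week 8 on, and the second stays between 148 and 380 counts.

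Week 12 against week 6 had 3 called members, 2 higher and 1 lower, where 1.85% of all genes were called, 1.36% higher and 0.491% lower. These were Slc7a9, Slc38a6 and Slc6a20a, all also called at week 10 against the same week 6 mice. Slc7a9 had 25.9, 12.6 and 13.3 CPM at week 12, with no overlap with week 6 (2.07 ± 0.50, adjusted p = 0.0471). Slc6a20a had 2.72, 3.53 and 2.99 CPM at week 12, also without overlap (-1.64 ± 0.35, adjusted p = 0.0378). Slc3a1 had 2.41, 1.93 and 2.68 CPM at week 12, all above week 6, and did not pass (2.42 ± 0.73, adjusted p = 0.084). The number of calls was 0 without any 1 week 6 library or without week 12 replicate 1 or 2, and 1 without week 12 replicate 3. Where the model did not share the spread of the other groups it was 27, and it was 29 with a weight per group. The member median was -0.52, against 0.00 over all genes, and 13 of 49 fitted changes lay above 0, against 50.1% of all genes. Slc7a11 and Slc7a1 had 3.81, 4.25 and 7.39 CPM and 14.3, 13.4 and 24.2 CPM at week 12, neither called. Week 12 against week 10 had no called member in edgeR, where 0.448% of all genes were called, 0.209% higher and 0.239% lower, and 23 of 49 fitted changes lay above 0, against 49.5% of all genes. The unadjusted count was 5, DESeq2 called 2 and limma on log2 TPM called 0. Slc6a7 had 1.20, 1.89 and 0.892 CPM at week 12, against 0.307, 0.239 and 0.301 CPM at week 10, without overlap (2.22 ± 0.57, adjusted p = 0.0932).

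Week 14 against week 6 had 10 called members, 4 higher and 6 lower, where 33.1% of all genes were called, 24.5% higher and 8.56% lower. The member median was -0.73, against -0.06 over all genes, and 11 of 49 fitted changes lay above 0, against 48.2% of all genes. Slc7a9 had 9.22, 27.6 and 15.5 CPM at week 14, all above week 6 (2.08 ± 0.50, adjusted p = 0.00778). Slc3a1 had 1.24, 5.68 and 3.01 CPM, also all above it (2.91 ± 0.74, adjusted p = 0.0099). Slc7a6os had 12.0, 59.5 and 43.4 CPM (1.84 ± 0.42, adjusted p = 0.00676), and Slc38a6 was the fourth. In all of these the lowest value was that of replicate 1. Lower was Slc6a20a, with 5.98, 2.12 and 2.08 CPM at week 14 (-1.48 ± 0.35, adjusted p = 0.00731). Slc43a2 had 17.02, 2.75 and 5.04 CPM (-1.62 ± 0.46, adjusted p = 0.0177). Slc1a5 (chr7:16781340-16798274, forward strand) had 104, 25.5 and 30.2 CPM at week 14, against 130, 146 and 137 CPM at week 6 (-1.37 ± 0.42, adjusted p = 0.0257). In each of these replicates 2 and 3 were well below replicate 1, which itself lay under the week 6 mice. Slc38a10 (chr11:120103960-120151346, reverse strand), a glutamine, glutamate and aspartate carrier of the SLC38 family, had 93.2, 34.8 and 46.4 CPM at week 14, against 114, 107 and 117 CPM at week 6 (-0.95 ± 0.28, adjusted p = 0.02). Slc7a10, with 1, 0 and 0 counts at week 14, and Slc7a14, with 62, 3 and 0 counts at week 14 (adjusted p = 0.0451), were the other two; both lie below 1 TPM.

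The week 14 calls depended on which libraries entered. Leaving out any 1 week 6 library ended the calls of Slc1a5, Slc38a6 and Slc7a14, and leaving out week 14 replicate 2 ended these and those of Slc7a9 (1.58), Slc3a1 (2.27), Slc43a2, Slc38a10 and Slc7a10. Without replicate 1 the number of called members was 33, without replicate 2 it was 2 and without replicate 3 it was 4; without week 6 replicate 1 or 3 it was 5. Without the 2 low RIN libraries, with RIN as a covariate, with cage as a factor, or with only the 2 groups in the model, it was 0. On log2 TPM it was 32 or 35, against a median of all genes that had moved down. Low RIN and high S100a8 and S100a9 marked the same 2 libraries, so RNA quality and inflammation cannot be told apart there. Slc7a11 had 4.43, 14.3 and 15.5 CPM and Slc7a5 19.5, 8.49 and 13.8 CPM at week 14, neither called. Slc6a6 had 83.1, 12.0 and 18.2 CPM (adjusted p = 0.0611), Slc6a14 739, 381 and 485 CPM and Slc7a1 34.2, 9.61 and 8.41 CPM, also not called.

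Across the 5 Il10KO ages 9 members differed in edgeR's test, where 27.4% of all genes did: Slc6a20a and Slc7a5 (adjusted p = 0.0155 each), Slc7a9 (0.0179), Slc7a6os (0.0216), Slc38a6 (0.0275), Slc6a7 (0.0287), Slc7a10 (0.0291), Slc43a2 (0.036) and Slc3a1 (0.0432). Their courses differed. Slc7a5 was highest at week 10 alone, at 43.9 ± 16.2 CPM, against 13.9 to 22.7 CPM in the means of the other Il10KO ages. Slc7a9 averaged 4.12 ± 0.242 CPM in the youngest Il10KO mice and 9.27 ± 5.59 CPM at week 8 (SD, n = 3). It averaged 24.5 ± 10.2, 17.3 ± 7.47 and 17.4 ± 9.37 CPM in the Il10KO mice of weeks 10, 12 and 14, against 3.46 ± 0.178 CPM in WT mice. The means of weeks 10, 12 and 14 differed by less than the spread of their mice.

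Of 29 genes that answer a shortage of amino acids, most of them targets of ATF4, 12 rose, 3 fell and 14 did not pass at week 10, where 14.6% of all genes were called higher and 9.48% lower. Their median change was 0.76, against 0.01 over all genes. Asns, which makes asparagine, had 95.3, 52.5 and 79.1 CPM at week 10, against 25.6, 34.9 and 35.1 CPM at week 6 (1.25 ± 0.33, adjusted p = 0.0188). Psat1, of serine synthesis, had 114, 41.4 and 54.2 CPM at week 10, against 12.6, 15.6 and 18.6 CPM at week 6 (2.17 ± 0.55, adjusted p = 0.0169). The glutathione-degrading Chac1 had 7.34, 3.11 and 1.90 CPM at week 10, against 0.306, 0.506 and 0.815 CPM at week 6 (2.91 ± 0.79, adjusted p = 0.0217). In each of these genes every week 10 mouse was above every week 6 mouse. Wars, the tryptophanyl-tRNA synthetase, which is also induced by interferon gamma, changed by 2.86 ± 0.63 (adjusted p = 0.0105), with 292, 1205 and 1873 CPM at week 10. The 3 that fell were Sesn2 and Gpt2, which are induced by ATF4 in other settings, and Vldlr. At week 12 no gene of this list was called against week 6, and against week 10 only Asns was, with 22.5, 20.1 and 25.8 CPM at week 12 (-1.73 ± 0.33, adjusted p = 0.0371). At week 14, 10 were higher and 3 lower, where 24.5% of all genes were called higher and 8.56% lower, with Atf4 at 65.4, 331 and 346 CPM, against 51.5, 41.4 and 46.6 CPM at week 6 (2.41 ± 0.47, adjusted p = 0.00616); replicate 1 was again nearest to week 6.

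**Figure D5:**
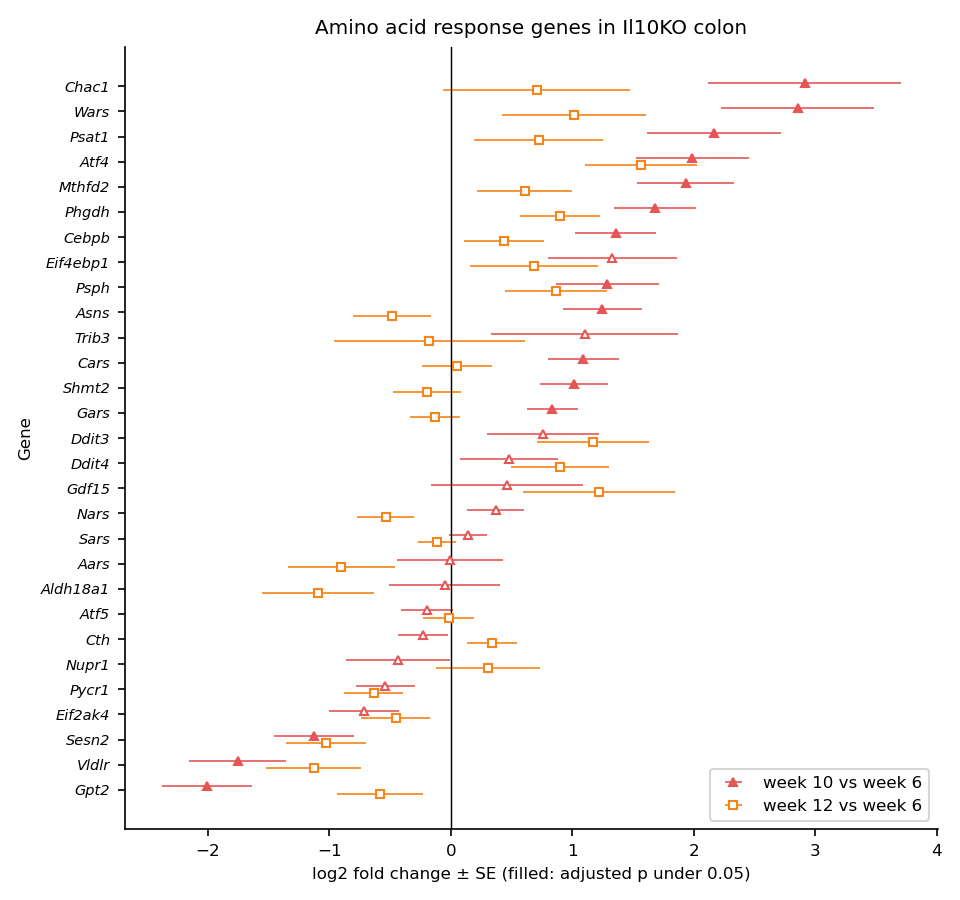
Log2 fold change ± SE of 29 amino acid response genes at week 10 (red triangles) and week 12 (orange squares), each against the same Il10KO week 6 mice; filled symbols passed an adjusted p of 0.05. At week 10, 12 genes passed above 0 and 3 below, and at week 12 none passed.

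Other lists around the transporters held genes that passed in both directions at week 10, where 14.6% of all genes were called higher and 9.48% lower. Of 16 genes of glutathione synthesis and use, 4 rose and 1 fell, with a median of 0.96. Gpx2, the gut glutathione peroxidase, had 2622, 935 and 765 CPM at week 10, against 167, 193 and 230 CPM at week 6 (2.87 ± 0.69, adjusted p = 0.0146). Txnrd1 changed by 1.44 ± 0.34 (adjusted p = 0.0139). Of 13 genes of branched-chain amino acid and glutamine metabolism, 1 rose and 4 fell. Glul, which makes glutamine, had 52.4, 95.2 and 133 CPM at week 10, against 503, 544 and 536 CPM at week 6 (-2.50 ± 0.55, adjusted p = 0.0106). The genes of amino acid sensing by mTORC1 had 3 of 31 higher and 3 lower, Lamtor3, Rragc and Sec13 against Castor2, Sesn3 and Tfeb. Castor2 of this list had 2.27, 1.98 and 2.17 CPM at week 10, against 8.81, 6.89 and 8.93 CPM at week 6 (-1.94 ± 0.51, adjusted p = 0.0188). Of 16 other carriers of amino acids and peptides, Slc15a3, of histidine and peptides in the lysosome, rose by 1.66 ± 0.38 (adjusted p = 0.0125). The lysosomal cystine carrier Ctns had 11.7, 17.99 and 22.6 CPM at week 10, against 48.0, 47.0 and 47.0 CPM at week 6 (-1.44 ± 0.46, adjusted p = 0.0365). At week 14, where 24.5% of all genes were called higher and 8.56% lower, the glutathione list had 7 higher and 0 lower of 16, and the mTORC1 list 8 higher and 6 lower of 31, with Lamtor5 at 2.92 ± 0.60 (adjusted p = 0.00616). Lamtor5 had 28.7, 322 and 245 CPM at week 14, against 25.0, 27.1 and 26.5 CPM at week 6. Gpx1 of the glutathione list had 353, 5999 and 3914 CPM at week 14, against 286, 328 and 300 CPM at week 6. The peptide carrier gene Slc15a1 was lower at week 14 (-1.40 ± 0.36, adjusted p = 0.0114), with 214, 65.3 and 65.6 CPM, against 296, 320 and 292 CPM at week 6. In each of these genes replicate 1 was nearest to week 6, and replicates 2 and 3 are the libraries of low RIN. None of these lists had a called gene at week 12 against week 6 or at week 8.

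Markers of several cell types of the colon wall moved with these results, and their part in them was not tested. At week 10, where 9.48% of all genes were called lower and 14.6% higher, 6 of 10 enteric neuron markers were lower and 0 higher (median -1.57), with summed TPM of 13.1 to 39.9 at week 10, against 88.5 to 91.9 at week 6. The same held for 5 of 6 fibroblast markers (median -1.70; 241 to 434 TPM, against 878 to 1327 TPM) and 4 of 6 endothelial markers (median -1.80; 14.98 to 23.2 TPM, against 61.1 to 70.0 TPM). Of 7 neutrophil markers 5 were higher and 0 lower (396 to 18835 TPM, against 64.5 to 94.5 TPM). Of 10 epithelial markers 2 were higher and 0 lower, with a median of -0.02 and 8208 to 14831 TPM at week 10, against 13316 to 15896 TPM at week 6. The medians are from the count model, while the sums are on the TPM scale whose shift is given above. Members known from neurons did not all move alike in this setting. At week 10 Slc6a17 had 0.192, 1.77 and 4.12 CPM, against 6.45, 8.00 and 8.46 CPM at week 6 (-1.90 ± 0.83, adjusted p = 0.0933). Slc7a14 had 0.576, 0.375 and 1.81 CPM at week 10, against 3.46, 3.98 and 3.70 CPM at week 6 (-2.00 ± 0.88, adjusted p = 0.0936). The proline carrier Slc6a7 overlapped between these ages, with a mean of 0.282 CPM at week 10 and 0.323 CPM at week 6. At week 12 its mean was 1.33 CPM.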

How the data were processed

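RNA of 18 distal colon biopsies was read as paired 150-base reads, per the labels. The authors used FastQC and kallisto with build mm10, per the submitters' processing notes; versions, annotation release and strand setting are not given in the sources used here. The deposited gene table holds estimated counts per gene symbol, rounded to whole numbers, for genes with at least 50 counts over all libraries; a second deposited table holds TPM, and per-library transcript tables hold estimated counts and TPM, per the file headers.

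Counts were TMM-normalised and fitted with 1 mean for each of the 6 groups in edgeR 4.0.16 (18 libraries), and contrasts were tested with its quasi-likelihood F-test. filterByExpr kept 16300 of 16321 genes, and p-values were adjusted by Benjamini-Hochberg over all of them. The common biological coefficient of variation was 0.394. SE is the change divided by the square root of F. Positions and overlaps come from GENCODE M21 (GRCm38), promoters from RefSeq, and matches of the last exon of 1 Slc38a6 transcript from BLASTN 2.17.0. The steps were tested on simulated counts with 200 changed genes, drawn with the same spread in every group. That simulation does not show how the steps behave with the unequal spread of these data. A count of 0 allows up to 3 counts; such limits cover counting error only.

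The members, the lists and the rule for naming genes were chosen with earlier results of these data known. Named are members called in a comparison with a mean of at least 1 TPM in some group, up to 8 per direction by p, 13 members given in any case, and up to 3 called genes per other list; other members are named where a small count is spelled out. Lists are described by counts and medians with no test. All later ages share the week 6 libraries, so their results are not independent. Alternatives were DESeq2 1.42.0, limma 3.58.1 on log2(TPM + 1) or log2(TPM + 0.1), RLE, no filter, RIN or cage in the model, a replicate block, a fit restricted to the groups compared, voom with a weight per group, leaving out libraries, and, chosen after the data were seen, Slc38a6 without that transcript. R was 4.3.3, Python 3.11.15, pandas 2.3.3 and matplotlib 3.10.9. One gene of the other lists is not reported here.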

Additional observations from a re-analysis of the deposited data

How the results depend on the processing

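Of 615 reruns of 33 member results, 433 kept direction and side of the threshold, 167 lost the call, 9 gained one and 6 turned. Counts of called members follow for week 10, week 12 and week 14 against week 6, and across ages, where the values above are 12, 3, 10 and 9. They were 17, 9, 17 and 14 in DESeq2; 10, 3, 32 and 19 on log2(TPM + 1) and 10, 0, 35 and 18 on log2(TPM + 0.1); and 20, 29, 3 and 26 with a weight per group. With RIN as a covariate they were 22, 18, 0 and 18, with cage as a factor 3, 0, 0 and 0, and with only the groups compared 16, 27, 0 and 4. Without the 2 libraries of RIN under 7 they were 26, 21, 0 and 20, and without week 14 they were 26, 21 and, across ages, 21. Week 12 against week 10 had 2 in DESeq2, with RIN and without the low RIN or week 14 libraries, and 1 with a weight per group. Leaving out 1 of the libraries compared gave 3 to 14, 0 to 1, 2 to 33 and 3 to 34. Il10KO against WT and week 8 had 0 in all reruns. The cause of these shifts was not tested.

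Reversed changes were those of Slc38a6 at week 14 (-0.31 and -0.32 on log2(TPM + 1) and log2(TPM + 0.1)), of Slc7a1 at week 10 (0.087 with cage; -0.87 to 0.23 without 1 library) and of Slc3a2 at week 10 (-0.17 to 0.090 without 1 library). With the replicate number as a block the counts were 10, 3, 13 and 5. Deviations from the group means had a mean r of 0.016 over 45 pairs of libraries of the same number, 13 above 0.1. Over 90 pairs of different numbers the mean r was -0.0079, with 15 above 0.1. Of 18 libraries, 8 were closest to one of their own number. Whether the numbers pair the mice cannot be settled by these values. RLE, no filter and Slc38a6 without its 5-exon transcript kept the counts within 1.5 times.

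Members below 1 TPM rest on few counts, and 3 mice per group, with very unequal spread between groups (weights of 3 at Il10KO week 6 and 0.177 at week 14), limit every test here.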
